A study of Bos taurus with 12 samples.

Results

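The genes described here run the cell cycle and DNA replication in cattle embryos before and at the start of conceptus elongation. They were 52 genes listed by symbol, 36 that act in entry into and passage through DNA replication and 16 that act in mitosis. A gene was represented by the probe set that carries its symbol alone and has the highest mean over all 12 arrays. By this rule 44 of the 52 genes were measured, of 9155 genes represented in the same way in the whole series. CDK6, CDC25A, CDKN1B, MCM2, CDC25B, KIF11, TOP2A and MKI67 had no such probe set and were not analysed here. Of the 44, 39 exceeded background on all 12 arrays, where background is a log2 intensity of 3.39, set from control probe sets with no matching RNA in the sample. PRIM1 exceeded it on 1 array, and CCND1, CCND3, E2F1 and RB1 on 0 arrays, so those 5 genes have only an upper bound in most or all groups. They stay in every count over the 44 below. CDK2 and CDKN1C are among the 39, but CDK2 lay within 0.05 of a single value on 11 arrays and CDKN1C on 10. ORC2 and CCNE1 did so on 5 arrays each, at values near 5.93 and 6.23. Whether such flat values above background are signal was not tested.

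Affymetrix bovine arrays measured total RNA from 12 pools, 3 in each of 4 groups. Day 13 in vitro and Day 13 in vivo pools held 5 conceptuses each, and Day 7 in vitro and Day 7 in vivo pools held 25 blastocysts each. In vitro embryos came from IVF and in vivo embryos from superovulation. All Day 13 conceptuses, of either origin, had grown in synchronized recipient heifers, 10 transferred blastocysts to a heifer. The labels call the pools biological replicates and do not say which heifers' conceptuses were combined.

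As background, a cell commits to a round of division when D-type and E-type cyclins with their kinases inactivate the retinoblastoma protein and free E2F factors, and CDK inhibitors such as p21 oppose that step. Replication origins are licensed in G1, when ORC, CDC6 and CDT1 load the MCM helicase onto DNA, and are fired in S phase, when PCNA, its loader RFC, RPA and the polymerases copy the DNA from nucleotides supplied by ribonucleotide reductase, thymidylate synthase and thymidine kinase. Mitosis is driven by A-type and B-type cyclins with CDK1 and by the Aurora and Polo kinases, and the spindle checkpoint holds back CDC20 until chromosomes are attached. In ruminants the trophectoderm proliferates as the blastocyst turns into an ovoid and then an elongating conceptus.

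Array measures differed between the groups in ways that touch every comparison below. Day 13 in vitro lay lowest in the poly-A mean and Day 7 in vivo highest in the GAPDH difference, both without overlap. Every comparison holds Day 13 in vitro or Day 7 in vivo. The mean of the poly-A RNAs, which are added to the sample before labelling, was 9.27, 10.50 and 12.99 (log2) in Day 13 in vitro replicates 1, 2 and 3. The other means were 14.45 ± 0.18 for Day 13 in vivo, 14.03 ± 0.64 for Day 7 in vitro, and 14.63 ± 0.45 for Day 7 in vivo (SD, n = 3 each). The difference between the 3' and 5' GAPDH control probe sets, which grows as labelling stops nearer the 3' end, was 2.53, 2.61 and 4.17 (Day 13 in vitro), 4.62, 2.85 and 4.57 (Day 13 in vivo), 3.40, 4.19 and 3.47 (Day 7 in vitro), and 5.58, 5.65 and 5.59 (Day 7 in vivo). Among the 39 genes above background, Day 13 in vitro replicate 3 was the lowest of its group for 29, and Day 13 in vivo replicate 2 was the highest of its group for 19. Of 14 measured trophoblast markers, 14 exceeded background on every Day 13 in vitro array, 12 on every Day 13 in vivo array and 11 on every array of either Day 7 group, with ELF5, PAG8 and PAG11 at background on all Day 7 arrays. Their summed linear intensity was 63388 to 101441 (Day 13 in vitro), 59831 to 70495 (Day 13 in vivo), 25079 to 37409 (Day 7 in vitro) and 19530 to 35869 (Day 7 in vivo), and the part of this difference in the results below was not tested. Uterine markers exceeded background on every array of a group for 0 of 6 genes in all 4 groups. Of the cumulus cell markers, PTX3, AMH, FSHR, CYP19A1, INHA and FOXL2 were at background on all arrays and HAS2 exceeded it in all groups. VCAN exceeded background on every array of both Day 13 groups and on some of the Day 7 arrays. TNFAIP6 did so on every Day 13 in vivo array and was at background on all in vitro arrays. The summed intensity of the 9 cumulus markers was 200 to 253 (Day 13 in vitro), 257 to 407 (Day 13 in vivo), 225 to 283 (Day 7 in vitro) and 369 to 452 (Day 7 in vivo). Of 7 blood cell markers, HBB exceeded background on every Day 7 array and the other 6 were at background throughout, and their sums were 35.4 (Day 13 in vitro), 32.9 to 38.9 (Day 13 in vivo), 62.0 to 387 (Day 7 in vitro) and 129 to 252 (Day 7 in vivo). The 7 sperm markers summed to 358 to 546 (Day 13 in vitro), 504 to 754 (Day 13 in vivo), 879 to 1023 (Day 7 in vitro) and 889 to 1367 (Day 7 in vivo), with ODF2 and TNP1 above background on every array and ODF1, TNP2 and ACR on none. The part of these lists in the results was not tested.

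**Figure D1:**
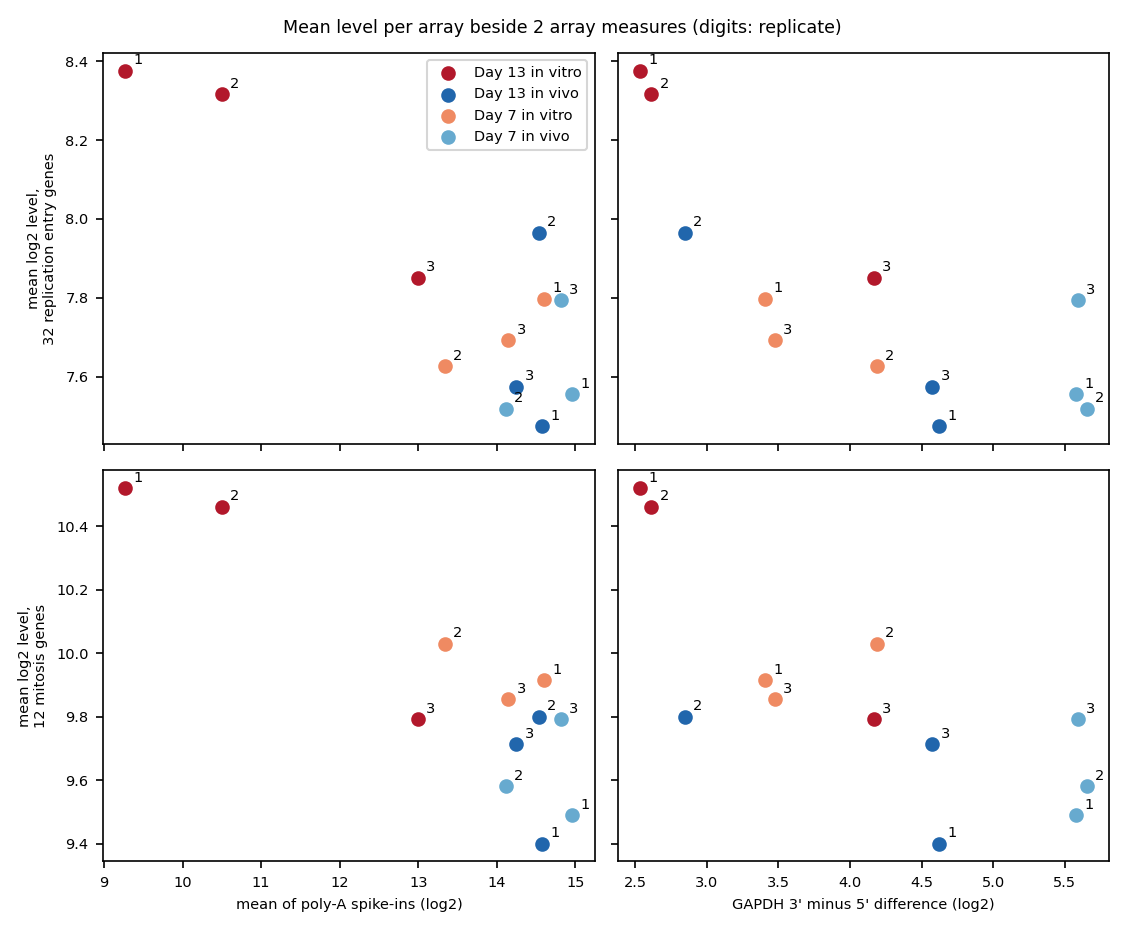
Mean log2 level of the 32 measured replication entry genes (upper row) and the 12 measured mitosis genes (lower row) on each array, against the mean of the poly-A spike-ins (left) and the GAPDH 3' minus 5' difference (right). Each point is an array and its digit is the replicate. Day 13 in vitro replicates 1 and 2 have the highest means in both rows, at 8.38 and 8.32 for replication entry, and the lowest poly-A values, at 9.27 and 10.50.

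The mean level of the replication entry genes was 8.18 ± 0.29 at Day 13 in vitro, 7.67 ± 0.26 at Day 13 in vivo, 7.71 ± 0.09 at Day 7 in vitro and 7.62 ± 0.15 at Day 7 in vivo (log2, SD, n = 3 each). For the mitosis genes it was 10.26 ± 0.40 at Day 13 in vitro, 9.64 ± 0.21 at Day 13 in vivo, 9.93 ± 0.09 at Day 7 in vitro and 9.62 ± 0.16 at Day 7 in vivo. Day 13 in vitro replicates 1 and 2 lay above all other arrays in both, and replicate 3 lay within the range of the other 9 arrays in both. The same mass of RNA was labelled from every pool, so a level is a share of the pool's RNA, and fewer cells of a type cannot be told apart from less RNA per cell.

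At Day 13 against Day 7 in vitro, 4 genes of DNA replication rose and no mitosis gene passed the test. CDC6, PCNA, RRM2 and MCM6 were higher at Day 13 at a Benjamini-Hochberg adjusted p below 0.05 (limma, two-sided, over 24016 probe sets), so 4 of 44 genes (9.09%) were called higher and 0 lower. Over all probe sets 7.51% were called in this comparison (3.55% higher and 3.96% lower), and 16.8% of the 5803 genes above background on at least 3 arrays (7.82% higher and 8.98% lower). The members' share is thus near the background and below that of the genes above background, of which 10.3% of the members (4 of 39) were called. All 4 calls fell among the 32 replication entry genes, against 0 of 12 mitosis genes, where 1 had an unadjusted p below 0.05. Over all 44 genes 20.5% had an unadjusted p below 0.05, against 19.2% of all probe sets and 39.4% of the genes above background. The difference between these counts was not tested. The median log2 difference was 0.40 over the replication entry genes and 0.29 over the mitosis genes, beside -0.02 over the genes above background. Values were higher at Day 13 with no overlap of the groups for 9 genes and lower for 3, against 10.4% and 11.1% of all probe sets and 21.5% and 23.0% of the genes above background. The count of 4 was 2 (CDC6 and PCNA) without Day 13 in vitro replicate 1, without its replicate 2 or without Day 7 in vitro replicate 1, and 8 without Day 13 in vitro replicate 3. The share of all probe sets called moved with it, to 4.0%, 4.03% and 3.80% in the first 3 cases and 12.1% in the last. The mitosis median was 0.16 without Day 7 in vitro replicate 3, 0.19 without Day 13 in vitro replicate 1 and 0.19 without Day 7 in vitro replicate 1.

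At Day 13 against Day 7 in vivo, 0 of 44 genes were called by limma, and 4 (9.09%) had an unadjusted p below 0.05. Over all probe sets 3.79% were called, and 8.32% of the genes above background, and the shares at an unadjusted p below 0.05 were 14% and 27.2%. The median difference was 0.00 over the replication entry genes and -0.07 over the mitosis genes, beside 0.02 over the genes above background. The groups did not overlap for 5 genes that were higher and 4 that were lower, against 6.68% and 8.34% of all probe sets and 14.6% and 16.1% of the genes above background. CDC6 came nearest to a call, at 1.36 ± 0.33 (SE) and an adjusted p of 0.0665, and was called when Day 13 in vitro replicate 3, which enters the shared spread, was left out.

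**Figure D2:**
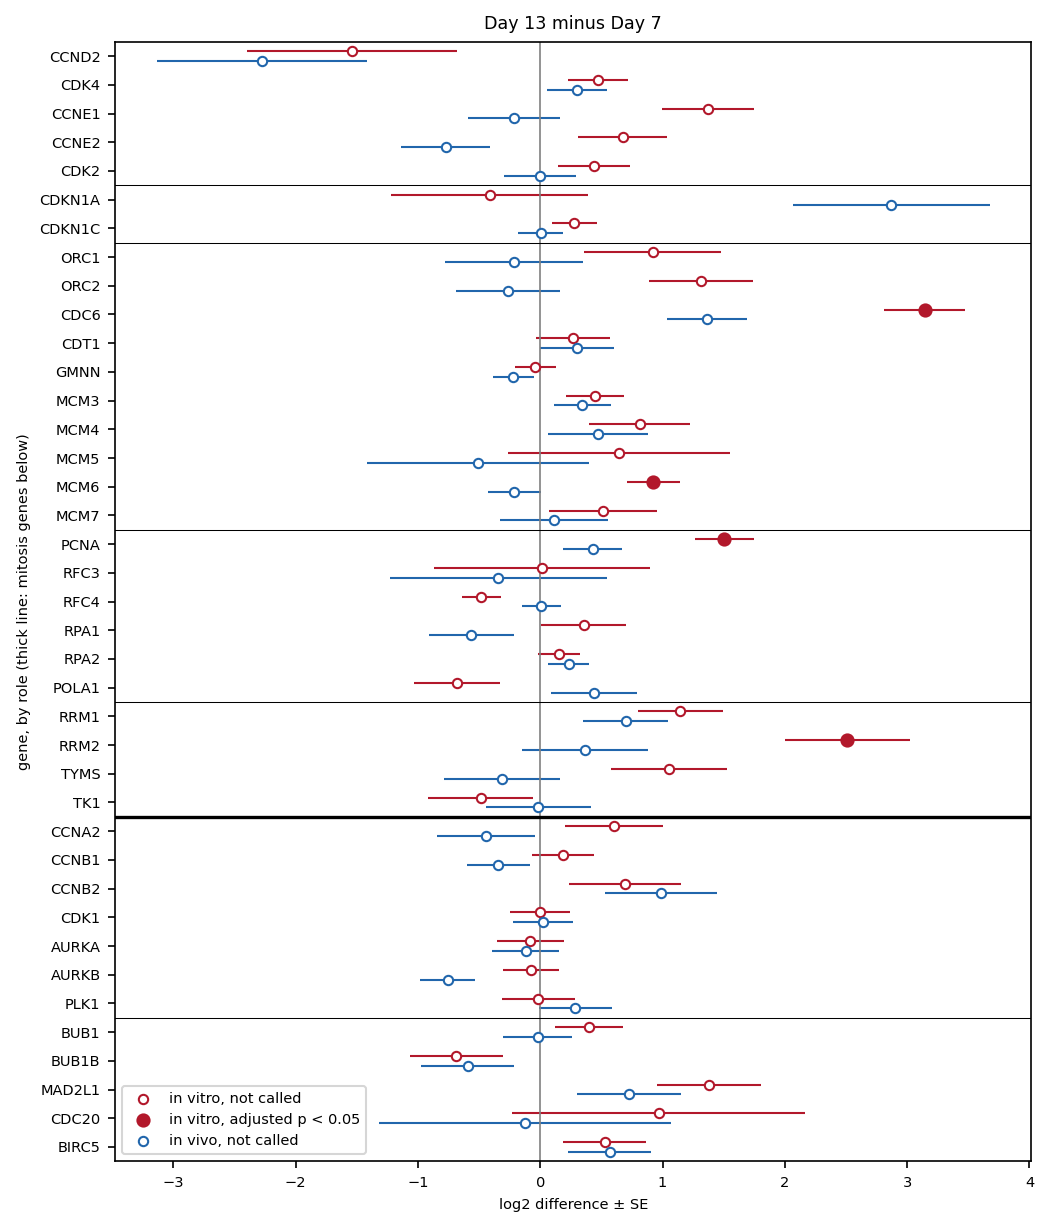
Log2 difference between Day 13 and Day 7 (x axis, ± SE) for the 39 genes above background, in vitro (red) and in vivo (blue), grouped by role from G1 cyclins at the top to spindle genes at the bottom. Filled points passed an adjusted p of 0.05. The filled points are CDC6, MCM6, PCNA and RRM2 in vitro, and the in vivo points have none.

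At Day 13, 1 of 44 genes was called between in vitro and in vivo conceptuses by limma, CCNE2, which was higher in vitro. Over all probe sets 1.20% were called (0.645% higher and 0.554% lower), and 2.41% of the genes above background (1.31% higher and 1.10% lower). Of the 44, 31 (70.5%) were higher and 9 lower in vitro, where 59.2% of all probe sets and 54.9% of the genes above background were higher. This split depended on scaling and on arrays, with 26 higher and 18 lower under median centring, 23 and 21 with the poly-A covariate, and 23 and 15 where replicate 3 alone stood for Day 13 in vitro. An unadjusted p below 0.05 was found for 11 genes (25.0%), against 16% of all probe sets and 30.0% of the genes above background. The median difference was 0.35 over the replication entry genes and 0.47 over the mitosis genes, beside 0.09 over the genes above background. With an array left out the replication entry median ran from 0.22, without Day 13 in vitro replicate 1, to 0.60, without its replicate 3, and under median centring it was 0.098. The groups did not overlap for 10 genes, all higher in vitro, and for 0 lower, against 8.73% and 6.01% of all probe sets and 18.0% and 11.6% of the genes above background. These 10 were CCNE1, CCNE2, ORC2, CDC6, MCM6, PCNA, RRM2, CCNA2, CCNB1 and MAD2L1. The count of 1 was 0 without Day 13 in vitro replicate 1 or without its replicate 2, and 8 without its replicate 3. The share of all probe sets called was 0.562%, 0.633% and 8.57% in these cases.

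At Day 7, 0 of 44 genes were called between in vitro and in vivo blastocysts by limma, and 2 (4.55%) had an unadjusted p below 0.05, CCNE2 and CDK1, against 6.67% of all probe sets and 12.1% of the genes above background. Over all probe sets 0.208% were called, and 0.414% of the genes above background. The median difference was -0.01 over the replication entry genes and 0.21 over the mitosis genes, beside 0.12 over the genes above background. The mitosis median was 0.14 without Day 7 in vivo replicate 2 and 0.35 without Day 7 in vitro replicate 2. CCNE2, POLA1 and CDK1 were higher in vitro with no overlap of the groups, and 0 genes were lower without overlap, against 5.57% and 3.72% of all probe sets and 13.1% and 6.17% of the genes above background.

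The test of the difference between the day effects in vitro and in vivo called 0 of 44 genes by limma, with 8 (18.2%) at an unadjusted p below 0.05, against 10.1% of all probe sets and 21.2% of the genes above background. Over all probe sets 0.400% were called, and 0.724% of the genes above background. The genes called in vitro and not in vivo are therefore not shown to differ in their day effect between the origins. The 8 were CCNE1, CCNE2, CDKN1A, ORC2, CDC6, MCM6, PCNA and RRM2. In 7 of them the day effect was more positive in vitro, and in CDKN1A it was more negative. With Day 13 in vitro replicate 3 left out, 4 of them were called, ORC2, CDC6, PCNA and RRM2 (9.09% of the 44), beside 4.51% of all probe sets.

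**Figure D3:**
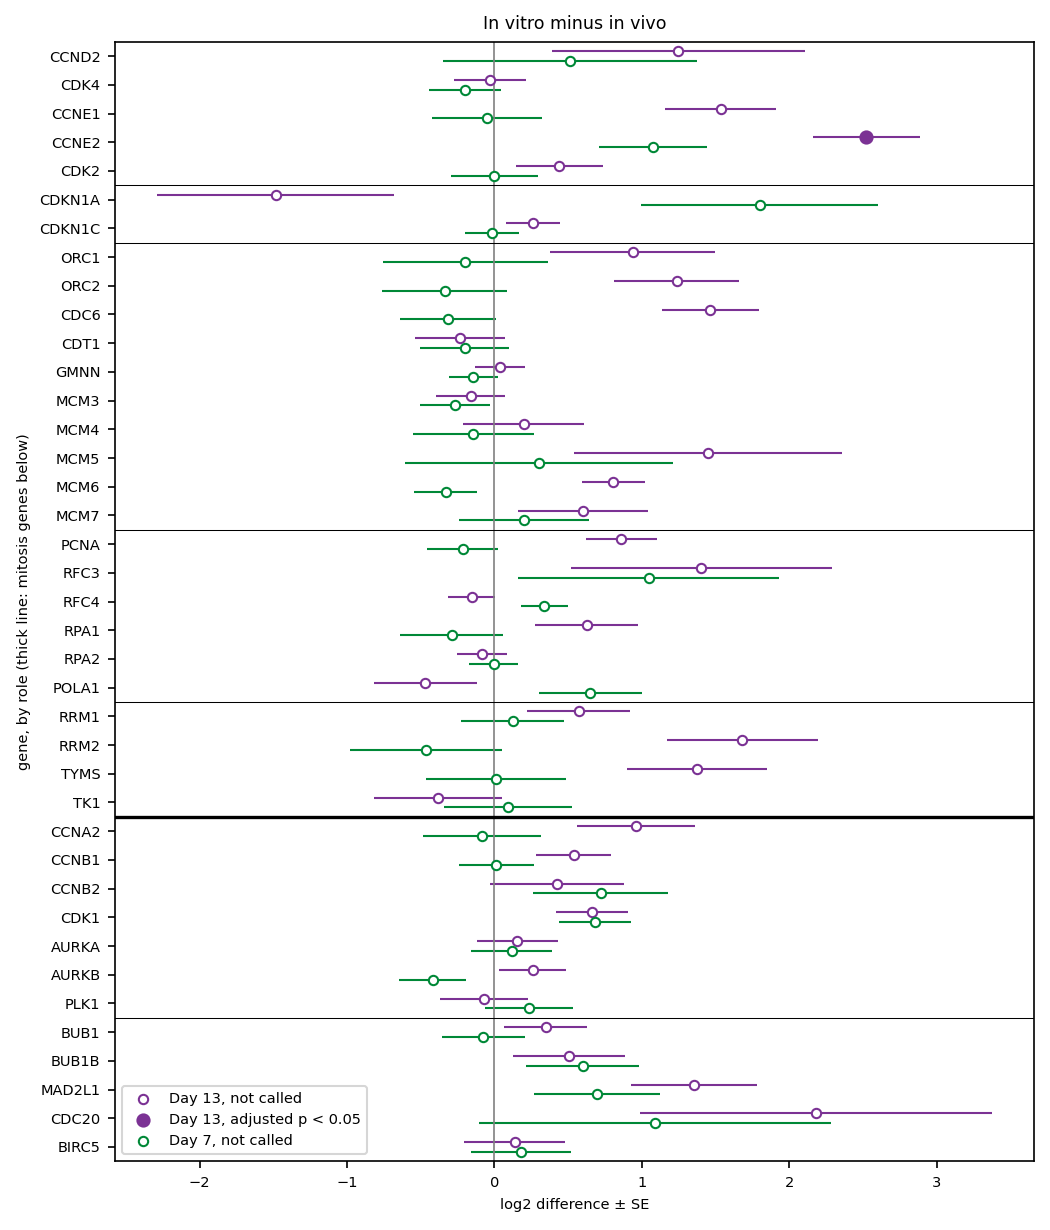
Log2 difference between in vitro and in vivo embryos (x axis, ± SE) for the 39 genes above background, at Day 13 (purple) and Day 7 (green), grouped by role. CCNE2 at Day 13, at 2.52, is the filled point, which passed an adjusted p of 0.05, and most Day 13 points lie right of 0.

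Of the origin licensing genes 10 were measured, and all 10 exceeded background. CDC6, the ATPase that recruits the MCM helicase to the origin recognition complex, read 11.13, 10.90 and 10.12 in Day 13 in vitro replicates 1, 2 and 3, against 7.29, 7.56 and 7.86 in Day 7 in vitro. In vivo it read 9.46, 9.39 and 8.90 at Day 13, against 7.38, 8.0 and 8.29 at Day 7. Every Day 13 array lay above every Day 7 array, and every Day 13 in vitro array above every Day 13 in vivo array. CDC6 rose 8.83-fold in vitro, by 3.14 ± 0.33 on the log2 scale with an adjusted p of 0.00106 (limma). In vivo the value was 2.57-fold, and the difference between the day effects was 1.78 ± 0.46 with an adjusted p of 0.204. At Day 13 the in vitro minus in vivo difference was 1.46 ± 0.33 with an adjusted p of 0.0794. A second CDC6 probe set read 8.37, 7.61 and 3.87 in Day 13 in vitro and was at background on the other 9 arrays, so it was at least 9.36-fold higher in Day 13 in vitro than in Day 7 in vitro, with an adjusted p of 0.0393. On that probe set replicates 1 and 2 carry most of the signal.

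MCM6, a subunit of the helicase ring, read 12.79, 12.84 and 12.52 in Day 13 in vitro, against 11.82, 12.06 and 11.49 in Day 7 in vitro. The in vivo arrays read 12.15, 11.53 and 12.05 at Day 13, against 12.08, 12.40 and 11.89 at Day 7. The in vitro groups did not overlap and the in vivo groups did. MCM6 rose 1.90-fold in vitro, by 0.93 ± 0.21 with an adjusted p of 0.0359 (limma). The Day 13 origin difference was 0.81 ± 0.21 with an adjusted p of 0.121. The day call was lost, with adjusted p between 0.0551 and 0.127, when any of 6 arrays was left out, namely Day 13 in vitro replicates 1 and 2, Day 13 in vivo replicate 3, Day 7 in vitro replicates 1 and 3, and Day 7 in vivo replicate 1. Its second probe set read 10.32, 9.34 and 4.66 in Day 13 in vitro and was at background on all Day 7 in vitro arrays, at least 26.3-fold higher at Day 13 with an adjusted p of 0.0469. Replicate 3 was far below the other two on that probe set, and 1 of 3 Day 13 in vivo arrays exceeded background.

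ORC2, a subunit of the origin recognition complex, read 7.87, 7.34 and 5.95 in Day 13 in vitro and 5.93, 5.93 and 5.59 in Day 13 in vivo. At Day 7 it read 5.93, 5.88 and 5.41 in vitro and 6.29, 6.01 and 5.93 in vivo. Replicates 1 and 2 of Day 13 in vitro stood apart, while replicate 3 was level with the other groups. That replicate is among the 5 arrays within 0.05 of 5.93, and whether this shared level is signal was not tested. The in vitro day difference was 1.31 ± 0.43 with an adjusted p of 0.12 (limma). Of the remaining licensing genes, ORC1, CDT1, MCM3, MCM4, MCM5 and MCM7 had in vitro day differences of 0.27 to 0.92 and in vivo ones of -0.51 to 0.47, none called. GMNN, the inhibitor of CDT1, had day differences of -0.04 ± 0.17 in vitro and -0.22 ± 0.17 in vivo. The median day difference over the 10 licensing genes was 0.73 in vitro and -0.05 in vivo.

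At the replication fork 7 genes were measured, 6 of them above background. PCNA, the sliding clamp that holds polymerases on DNA, read 14.21, 13.80 and 13.21 in Day 13 in vitro, against 12.38, 12.14 and 12.20 in Day 7 in vitro. Its in vivo values were 12.92, 12.75 and 12.97 at Day 13, against 12.12, 12.67 and 12.57 at Day 7. Day 13 arrays lay above Day 7 arrays within each origin, by more in vitro. PCNA rose 2.84-fold in vitro, by 1.50 ± 0.24 with an adjusted p of 0.00821 (limma), and had 0.43 ± 0.24 in vivo with an adjusted p of 0.556. The difference between these day effects was 1.07 ± 0.34 with an adjusted p of 0.302, and the Day 13 origin difference was 0.86 ± 0.24 with 0.139.

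POLA1, the catalytic subunit of the polymerase that starts each new strand, ran the other way in vitro, at 7.16, 6.51 and 6.78 in Day 13 in vitro, against 7.39, 7.59 and 7.51 in Day 7 in vitro. In vivo it read 6.69, 8.03 and 7.14 at Day 13, against 7.34, 6.60 and 6.61 at Day 7. The in vitro groups did not overlap, but the difference of -0.68 ± 0.35 had an adjusted p of 0.368. RFC4, a clamp loader subunit, was likewise lower at Day 13 in vitro without overlap, at -0.48 ± 0.16 with an adjusted p of 0.127. RFC3, RPA1 and RPA2 had in vitro day differences of 0.01 to 0.35 and in vivo ones of -0.56 to 0.23. The median over the 7 fork genes was 0.01 in vitro and 0.01 in vivo.

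Nucleotide supply was represented by 4 genes, all above background. RRM2, the regulatory subunit of ribonucleotide reductase that is made in S phase, read 13.81, 13.68 and 12.09 in Day 13 in vitro, against 10.74, 11.38 and 9.93 in Day 7 in vitro. The in vivo values were 11.69, 11.08 and 11.76 at Day 13, against 10.87, 11.37 and 11.21 at Day 7. The Day 13 in vitro arrays lay above all other arrays, and replicate 3 was nearest to them. RRM2 rose 5.70-fold in vitro, by 2.51 ± 0.51 with an adjusted p of 0.0219 (limma), and had 0.36 ± 0.51 in vivo with an adjusted p of 0.925. At Day 13 it was 1.68 ± 0.51 higher in vitro than in vivo without overlap, with an adjusted p of 0.168. The day call was lost when any of 4 in vitro arrays was left out, replicates 1 and 2 of Day 13 and replicates 1 and 3 of Day 7, with adjusted p of 0.0747 to 0.088.

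RRM1, the large subunit of the same enzyme, read 10.17, 9.84 and 8.67 in Day 13 in vitro, against 8.66, 8.48 and 8.09 in Day 7 in vitro. Its in vivo arrays read 8.93, 8.99 and 9.03 at Day 13, against 8.22, 8.54 and 8.10 at Day 7. Day 13 arrays lay above Day 7 arrays in both origins, in vitro by a margin under 0.05 between Day 13 replicate 3 and Day 7 replicate 1. The day difference was 1.15 ± 0.35 in vitro with an adjusted p of 0.0976 and 0.70 ± 0.35 in vivo with an adjusted p of 0.458. TYMS, thymidylate synthase, had 1.05 ± 0.48 in vitro and -0.31 ± 0.48 in vivo, and TK1, thymidine kinase, had -0.49 ± 0.43 and -0.01 ± 0.43, none called.

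**Figure D4:**
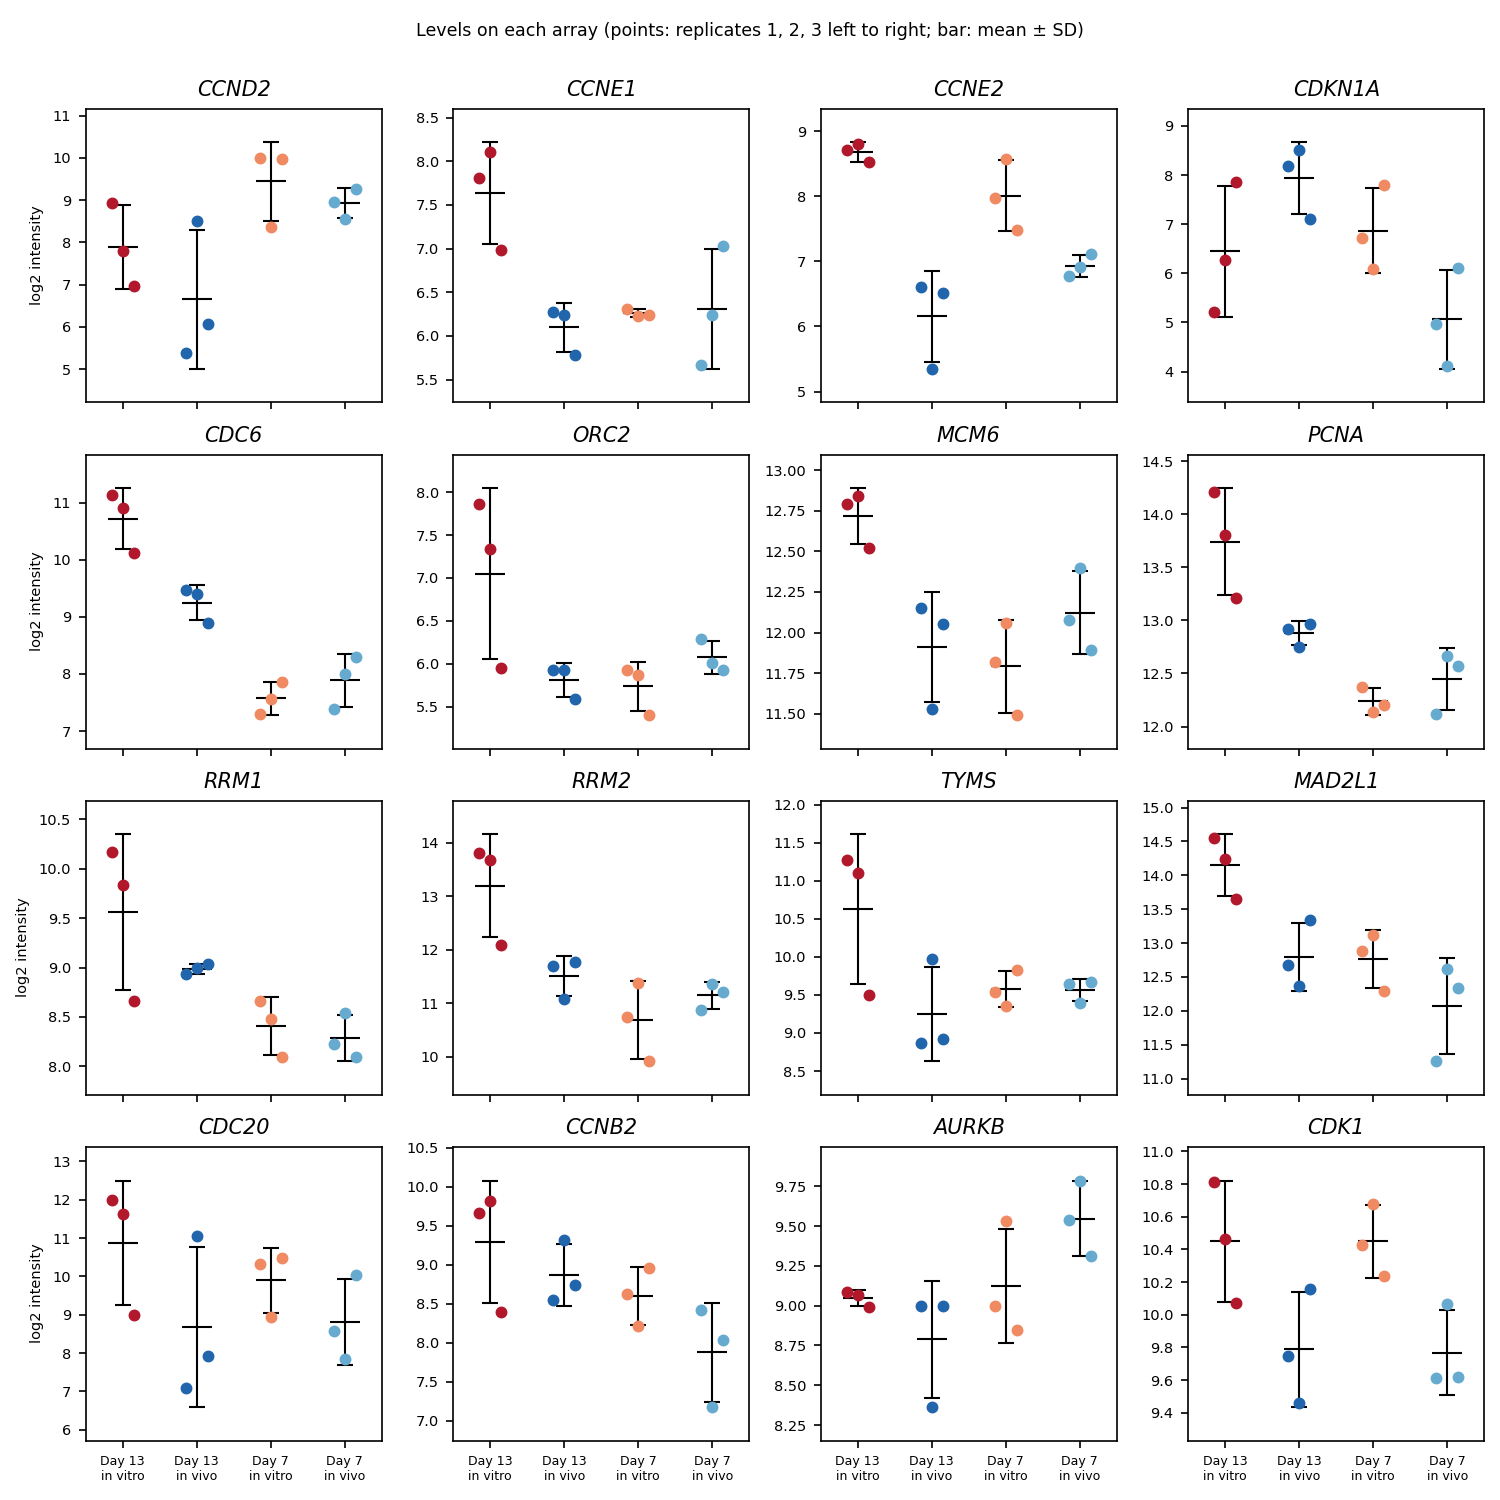
Log2 intensity (y axis, scaled to each gene) of 16 of the genes on every array, by group. Points are replicates 1, 2 and 3 from left to right, and bars give the mean ± SD. CDC6 is above its Day 7 arrays on all 6 Day 13 arrays, while ORC2, RRM1 and TYMS are high in Day 13 in vitro replicates 1 and 2 and not in replicate 3.

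With the poly-A mean as a covariate, 0 of 44 genes were called between the in vitro days, beside 0.82% of all probe sets. CDC6 then had a day difference of 2.35 with an adjusted p of 0.0549, PCNA 0.78 with 0.328, RRM2 0.93 with 0.91 and MCM6 0.56 with 0.988. Over all 26 alternatives the adjusted p ran from 4.1e-07 to 0.0549 for CDC6, from 7.18e-06 to 0.328 for PCNA, from 1.1e-05 to 0.91 for RRM2 and from 2.17e-05 to 0.988 for MCM6. The lowest value of each gene came from limma's default array weights, a fit that stopped before it converged. With Day 13 in vitro replicates 1 and 2 both left out, an alternative chosen after seeing the data, the group is a single pool that is assumed to vary like the other groups. The values were then 2.54 for CDC6, with an adjusted p of 0.0223, 0.97 for PCNA with 0.0806, 1.40 for RRM2 with 0.409 and 0.73 for MCM6 with 0.536.

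The G1 cyclins and kinases were 7 measured genes, of which CCND1 and CCND3 were at background. CCNE2, a cyclin that activates CDK2 at the start of S phase, read 8.72, 8.81 and 8.52 in Day 13 in vitro, against 6.60, 5.35 and 6.52 in Day 13 in vivo. Its Day 7 values were 7.97, 8.57 and 7.48 in vitro, against 6.77, 6.91 and 7.11 in vivo. In vitro arrays lay above in vivo arrays on both days. CCNE2 was 5.75-fold higher in vitro at Day 13, by 2.52 ± 0.36 with an adjusted p of 0.0188 (limma), and had 1.08 ± 0.36 at Day 7 with an adjusted p of 0.615. The difference between these origin effects, which equals that between the day effects, was 1.45 ± 0.52 with an adjusted p of 0.373. The call at Day 13 held under 19 of the 26 alternatives. These include a threshold of 0.1, under which it could not be lost. They also include fits without a Day 7 array, which acted only through the shared spread. The call was lost with the first in vitro array of Day 13 left out (adjusted p = 0.0778) or with the second left out (0.0725). It was also lost with the poly-A covariate (2.10, 0.687), an intensity trend (0.0608), replicate number as a block (0.0786) or only the groups compared (0.251). With both of those arrays left out, which leaves a single pool, the difference was 2.36. Across the 26 alternatives the adjusted p ran from 0.00334 to 0.687.

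CCNE1, the other E-type cyclin that activates CDK2, read 7.81, 8.11 and 6.98 in Day 13 in vitro and 6.27, 6.24 and 5.78 in Day 13 in vivo. The Day 7 arrays read 6.31, 6.23 and 6.24 in vitro and 5.66, 6.24 and 7.03 in vivo. Day 13 in vitro lay above both Day 13 in vivo and Day 7 in vitro without overlap. The in vitro day difference was 1.37 ± 0.38 with an adjusted p of 0.0684, and the Day 13 origin difference was 1.54 ± 0.38 with 0.0995. Its second probe set read 7.07, 6.48 and 4.46 in Day 13 in vitro, against 4.20, 4.16 and 4.19 in Day 7 in vitro, a difference of 1.82 ± 0.55 with an adjusted p of 0.0942.

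CCND2, the D-type cyclin detected here, read 8.94, 7.79 and 6.96 in Day 13 in vitro and 5.38, 8.50 and 6.08 in Day 13 in vivo. Its levels were 9.99, 8.37 and 9.96 in Day 7 in vitro and 8.96, 8.56 and 9.26 in Day 7 in vivo. The Day 13 arrays of each origin spread over more than the Day 7 arrays. The day difference was -1.54 ± 0.86 in vitro with an adjusted p of 0.433 and -2.28 ± 0.86 in vivo with 0.259. CDK4, the D-type cyclin kinase, had 0.47 ± 0.24 in vitro and 0.30 ± 0.24 in vivo. CDK2 lay within 0.05 of the value 4.73 on 11 of 12 arrays, with 6.02 on Day 13 in vitro replicate 1, so its differences rest on that array.

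Of the restriction point genes, E2F1 and RB1 were at background throughout. CDKN1A, which encodes the CDK inhibitor p21, read 5.22, 6.26 and 7.87 in Day 13 in vitro, against 6.72, 6.08 and 7.79 in Day 7 in vitro. In vivo it read 8.19, 8.51 and 7.11 at Day 13, against 4.97, 4.11 and 6.12 at Day 7. The in vitro groups overlapped and the in vivo groups did not. The in vivo difference was 2.87 ± 0.81, a 7.31-fold higher mean at Day 13, with an adjusted p of 0.115 (limma). In vitro the difference was -0.41 ± 0.81, and the difference between the day effects was -3.28 ± 1.14 with an adjusted p of 0.352, the largest estimate in size among the 44 genes. Within Day 13 in vitro, CDKN1A was lower on replicates 1 and 2 than on replicate 3. Replicate 3 was the lowest of the group for 29 of the 39 genes above background. These arrays also differ in the poly-A mean, and a link between CDKN1A and the replication genes was not tested.

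CDKN1C, which encodes the CDK inhibitor p57, was represented by a probe set within 0.05 of 4.10 on 10 of 12 arrays, with 4.89 on Day 13 in vitro replicate 3, and had day differences of 0.28 ± 0.18 in vitro and 0.00 ± 0.18 in vivo. Another of its 3 probe sets read 5.87, 6.03 and 6.24 in Day 13 in vitro and was at background on all 6 Day 7 arrays, at least 6.30-fold higher at Day 13 in vitro with an adjusted p of 0.00809 (limma). In Day 13 in vivo it exceeded background on 1 of 3 arrays, at 4.89. The third probe set lay between 3.83 and 4.98 on all arrays, with an in vitro day difference of 0.10 ± 0.21 and an adjusted p of 1, so 1 of the 3 was called. The count of 4 genes above does not hold that 1, which was singled out after its values were seen.

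**Figure D5:**
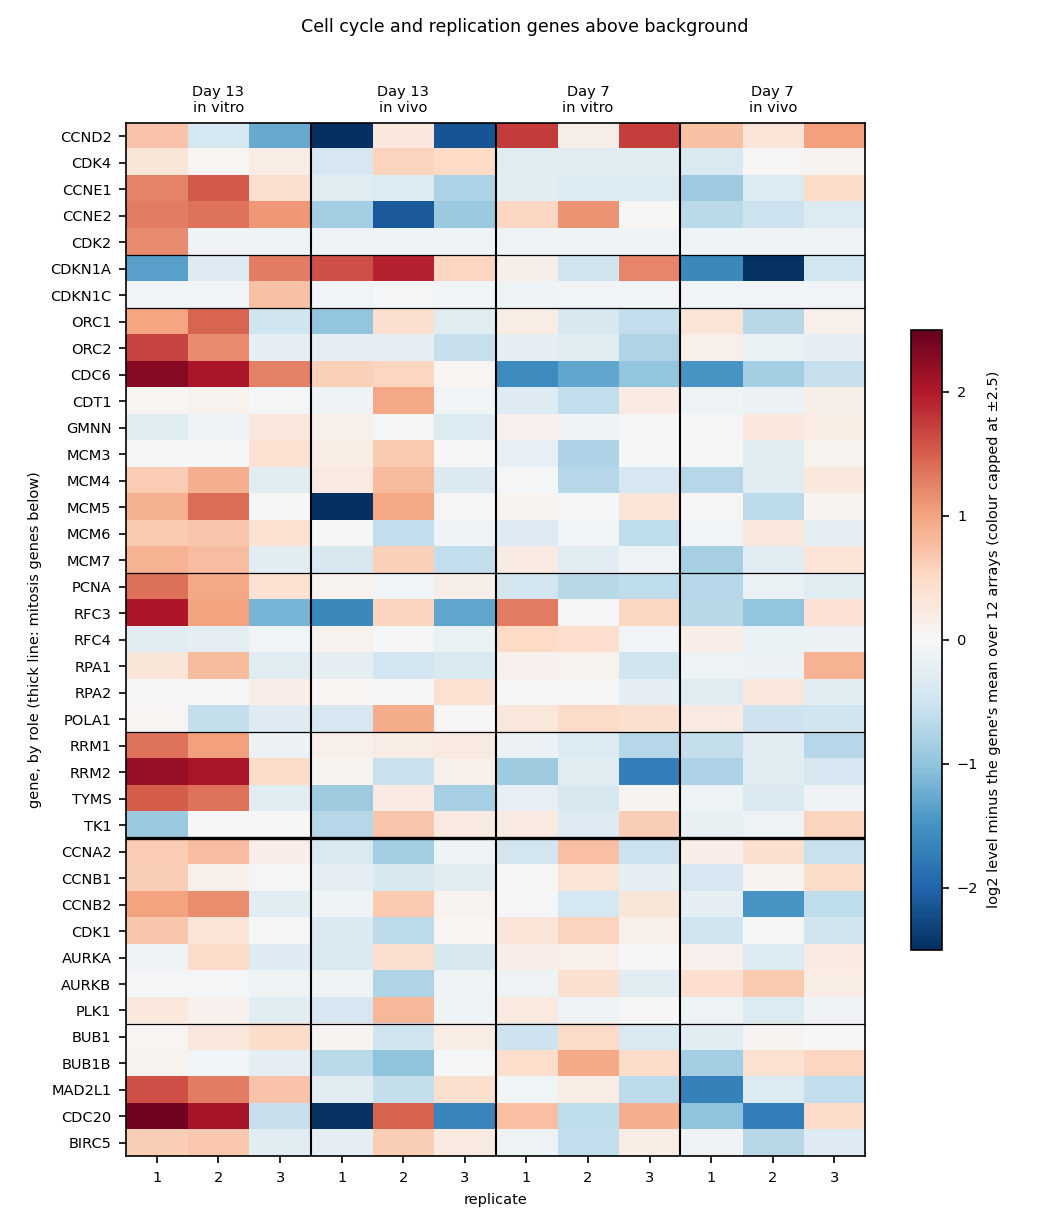
Log2 level of the 39 genes above background on each array (columns, by group and replicate), relative to each gene's mean over 12 arrays (colour, capped at ±2.5). Genes run by role, and the thick line separates replication entry from mitosis. CDC6 is blue on all Day 7 columns and red on Day 13 columns, palest in Day 13 in vivo replicate 3, and RRM2 and CDC20 are deepest red in Day 13 in vitro replicates 1 and 2.

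The 12 measured mitosis genes showed no call in any of the 5 comparisons. Of all probe sets, 7.51% (in vitro days), 3.79% (in vivo days), 1.20% (Day 13 origins), 0.208% (Day 7 origins) and 0.400% (difference of the day effects) were called. A count of 0 among 12 genes therefore does not set them apart. Mitotic entry had 7 measured genes, with in vitro day differences between -0.08 and 0.69 and a median of 0.00. CCNB2, a B-type cyclin that activates CDK1, read 9.67, 9.82 and 8.39 in Day 13 in vitro and 8.55, 9.31 and 8.75 in Day 13 in vivo. At Day 7 it read 8.62, 8.22 and 8.96 in vitro and 8.42, 7.18 and 8.03 in vivo. The in vivo groups did not overlap, at 0.99 ± 0.46 with an adjusted p of 0.4, and the in vitro groups did, at 0.69 ± 0.46. AURKB, the Aurora kinase of the chromosomal passenger complex, read 9.09, 9.07 and 8.99 in Day 13 in vitro and 9.00, 8.37 and 9.00 in Day 13 in vivo. Day 7 values were 9.00, 9.53 and 8.85 in vitro and 9.54, 9.79 and 9.31 in vivo. It was lower at Day 13 in vivo without overlap, at -0.76 ± 0.23 with an adjusted p of 0.142, and overlapped in vitro, at -0.08 ± 0.23. A second AURKB probe set differed in sign in vitro, at 0.94 ± 0.36, and a second AURKA probe set read -1.64 ± 0.73 where the chosen one read -0.08 ± 0.27, none called.

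CCNA2, CCNB1, CDK1, AURKA and PLK1 had in vivo day differences of -0.44 to 0.29. CDK1, the mitotic kinase, had wider differences between the origins than between the days. It read 10.81, 10.46 and 10.07 in Day 13 in vitro and 9.75, 9.46 and 10.16 in Day 13 in vivo. Its Day 7 arrays read 10.43, 10.68 and 10.24 in vitro and 9.61, 10.07 and 9.62 in vivo. The in vitro minus in vivo difference was 0.66 ± 0.25 at Day 13 and 0.68 ± 0.25 at Day 7, with adjusted p of 0.232 and 0.644, and the day difference was 0.00 ± 0.25 in vitro and 0.02 ± 0.25 in vivo.

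The spindle, checkpoint and chromosome group had 5 measured genes. MAD2L1, a spindle checkpoint protein that restrains CDC20, read 14.55, 14.24 and 13.66 in Day 13 in vitro, against 12.89, 13.12 and 12.29 in Day 7 in vitro. Its in vivo values were 12.68, 12.36 and 13.35 at Day 13, against 11.27, 12.61 and 12.34 at Day 7. Day 13 in vitro lay above all other groups. The in vitro day difference was 1.38 ± 0.43 with an adjusted p of 0.104 (limma), and the Day 13 origin difference was 1.35 ± 0.43 with 0.181. CDC20, the activator of the anaphase-promoting complex, read 11.99, 11.63 and 9.00 in Day 13 in vitro and 7.10, 11.05 and 7.92 in Day 13 in vivo. At Day 7 it read 10.31, 8.93 and 10.47 in vitro and 8.57, 7.84 and 10.04 in vivo. Within Day 13 in vivo the arrays ran from 7.10 to 11.05, and the Day 13 origin difference of 2.18 ± 1.20 had an adjusted p of 0.459. BUB1 and BIRC5 had in vitro day differences of 0.40 and 0.53. BUB1B, a spindle checkpoint protein, was lower at Day 13 in vitro without overlap, at -0.69 ± 0.38 with an adjusted p of 0.431.

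A further 137 genes of the same pathways were listed, and 88 were measured: 30 of replication, 40 of mitosis and 18 of G1 and checkpoint control. In vitro, 3 were called higher and 1 lower at Day 13 (4.55%), and in vivo 2 higher and 1 lower (3.41%), shares below the 7.51% and 3.79% of all probe sets. At Day 13, 2 were called higher and 1 lower in vitro relative to in vivo (3.41%, beside 1.20% of all probe sets), and 0 were called at Day 7 or for the difference of the day effects. MYC, a transcription factor that promotes entry into the cycle, read 6.90, 7.38 and 6.45 in Day 13 in vitro and 5.18, 5.37 and 5.73 in Day 13 in vivo, against 2.65 on every Day 7 in vitro array and 3.44, 2.65 and 3.34 in Day 7 in vivo. It was at least 11.4-fold higher at Day 13 in vitro with an adjusted p of 7.67e-05, and rose by 2.28 ± 0.28 in vivo with an adjusted p of 0.00295. At Day 13 it was higher in vitro than in vivo, by 1.48 ± 0.28 with an adjusted p of 0.0481. MYC was above background on 1 of 3 Day 7 in vivo arrays.

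CDK7, the kinase that activates other CDKs, rose in vitro by 2.93 ± 0.57 with an adjusted p of 0.0183, and had 2.30 ± 0.57 in vivo with 0.0747. SLBP, which binds histone mRNA and is known to be made in S phase, rose in vitro by 1.43 ± 0.35 with an adjusted p of 0.0458, and at Day 13 was higher in vitro than in vivo by 1.90 ± 0.35 with 0.0474. UHRF1, which keeps DNA methylation in place behind the fork, rose in vivo by 1.78 ± 0.35 with an adjusted p of 0.0268. Its Day 7 in vivo arrays read 4.39, 3.26 and 3.66, near the background of 3.39, so the size of this rise is uncertain. Of the 40 mitosis genes, 1 (2.5%) was called in each day comparison and 1 between the origins at Day 13. The shares of all probe sets were 7.51% (in vitro days), 3.79% (in vivo days) and 1.20% (Day 13 origins). NCAPH, a condensin subunit, was lower at Day 13 in vitro at -0.83 ± 0.19 with an adjusted p of 0.0347. CDC25C, a phosphatase that activates CDK1, was lower at Day 13 in vivo at -1.30 ± 0.25 with 0.0247. STMN1, a microtubule-destabilizing protein, was lower at Day 13 in vitro than in vivo at -1.27 ± 0.23 with 0.0476.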

How the data were processed

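Total RNA from 12 embryo pools, 75 ng each, was labelled in a two-cycle protocol and hybridised to Affymetrix bovine arrays, per the labels. The authors deposited log2 probe set values. RMA, GCRMA and limma stand in the submitters' processing notes with no version; whether RMA or GCRMA gave these values, and other steps, are not given in the sources used here. Of 24128 probe sets, 112 controls were left out. Gene symbols came from the platform annotation: 13292 probe sets carried 1 symbol, 86 several and 10638 none. Background was the 99th percentile over 48 control probe sets with no matching RNA in the sample, a choice made after the values had been seen. A bound given as "at least" sets a group wholly at background to that value.

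The 4 group means were fitted with limma 3.58.1 in R 4.3.3 (lmFit, eBayes without trend, 8 residual and 0.379 prior degrees of freedom), with Benjamini-Hochberg adjustment over 24016 probe sets and calls at an adjusted p below 0.05. Differences carry standard errors (SE), levels standard deviations (SD). The number of arrays limits the precision. Replicate numbers did not pair the arrays: 3 of 18 same-numbered pairs correlated above 0.1 after removal of group means (median r = -0.06). No arrays were identical. The fit was run on simulated data with independent noise and known shifts added to Day 13 in vitro, as a check of the code only. Those data held no differences between arrays like those described above. The members and lists were chosen with earlier results of these data known. Genes called in any comparison, and in each role the 2 with the widest day difference, are given with all values; of the other pathway genes, up to 6 called per comparison with the smallest adjusted p are named. TYMS, CDK1, RFC4 and some others are named beyond this rule. Other probe sets of a gene are given where above background on at least 3 arrays. Alternatives covered normalization, centring, filters, variance models, array weights, covariates, probe set choice, thresholds and left-out arrays.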

Additional observations from a re-analysis of the deposited data

How the results depend on the processing

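Of the 44 genes, 4 were called between the in vitro days. The count was 7 (15.9%) with arrays centred on their median, 8 of 39 (20.5%) without dim probe sets, 0 with the poly-A covariate and 1 (CDC6) with only the groups compared, while 9.36%, 27.2%, 0.82% and 3.28% of all probe sets were called. It was 2 to 8 with an array left out, 2 without replicate 1 or 2 of Day 13 in vitro or replicate 1 of Day 7 in vitro and 8 without Day 13 in vitro replicate 3. Array weights by limma's default method, which stopped before it converged, gave 27 calls (61.4%), beside 34.3% of all probe sets. The gene-by-gene method, added after those calls had been seen, gave 18 (40.9%), beside 24.5%. Without Day 13 in vitro replicates 1 and 2 together, also chosen after seeing the data, it was 2 (CDC6 and CDKN1C), but that arm is then a single pool, assumed to vary like the other groups. The CDKN1C call rests on that array, at 4.89, on a probe set near 4.10 elsewhere. Between the in vivo days the count of 0 became 1 (2.27%, CDC6 each time) with quantile normalization, median centring or a threshold of 0.1. The shares of all probe sets were 3.75%, 4.62% and 5.47%. The count was 2 (4.55%) with ribosomal centring (CCND2 and CDKN1A), beside 7.43% of all probe sets. Without dim probe sets it was 2 of 39 (5.13%, CDC6 and CDKN1A), beside 14%. It was 2 (4.55%) with the poly-A covariate (CDC6 and CDKN1A) and with the GAPDH covariate (CCND2 and TYMS), beside 3.84% and 2.14%. With an array left out it was 0 to 1, the 1 without Day 13 in vitro replicate 3, beside 3.96% of all probe sets.

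Between the origins at Day 13 the count of 1 became 9 (20.5%) with median centring. Under that setting 53.4% of all probe sets were called, against 1.20% as reported. The count was 3 (6.82%) with ribosomal centring or at a threshold of 0.1, beside 2.9% and 3.21% of all probe sets. Without dim probe sets it was 3 of 39 (7.69%), beside 11.5%. With either method of array weights it was 8 (18.2%), beside 9.31% and 7.17% of all probe sets. It was 0 with an intensity trend, the poly-A covariate or only the groups compared, beside 0.416%, 0.0375% and 0%. It was 0 to 8 with an array left out, 8 without Day 13 in vitro replicate 3 and 0 without its replicate 1 or 2. Under median centring CCND3 and E2F1, both at background, turned to -0.25. At Day 7 the count stayed 0 under all alternatives. For the difference of the day effects the count of 0 became 1 (2.27%) with ribosomal centring or default array weights (CDC6) or the GAPDH covariate (TYMS). The shares of all probe sets were 0.845%, 1.92% and 0.729%. The count was 0 to 4 with an array left out, the 4 (9.09%) without Day 13 in vitro replicate 3, beside 4.51% of all probe sets. With replicate number as a block, a pairing that the correlations do not settle, 3 genes (6.82%) were called between the in vitro days, beside 5.05% of all probe sets. MCM6 was lost there, at an adjusted p of 0.0703 (limma). Between the origins at Day 13, 0 genes were called, beside 0.496% of all probe sets, and CCNE2 had an adjusted p of 0.0786.

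The medians moved by more than the spread between replicates in these cases. Ribosomal centring, under which the median over all probe sets becomes -0.51 for the in vivo days, -0.54 for the origins at Day 7 and 0.66 for the difference of the day effects, gave replication entry medians of -0.51, -0.56 and 1.03 and mitosis medians of -0.58, -0.34 and 0.89. The poly-A covariate gave mitosis medians of -0.25 between the in vitro days, -0.085 between the origins at Day 13 and -0.31 for the difference. With that single pool these were -0.17 for the in vitro days and -0.28 for the difference. Between the origins at Day 7 the mitosis median was 0.058 with quantile normalization, 0.031 with median centring, 0.0026 with the GAPDH covariate, 0.39 with the mean of probe sets and 0.14 to 0.35 with an array left out, and the replication entry median was -0.51 with the GAPDH covariate. The cause of these changes was not tested. The other pathway genes and the further probe sets were not refitted one by one, so their calls carry no such check.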
